A study of Mus musculus with 4 samples.

Results

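Cycling macrophages were the C1q-positive macrophages of injured mouse muscle that held RNA of cell division. The cells were chosen by their own RNA: a cell barcode counted as a cycling macrophage where at least 500 genes were detected and under 10% of its UMIs (distinct RNA molecules) were mitochondrial, where *Mki67* (ENSMUSG00000031004; GRCm38, chr7:135689784-135716361) and *Top2a* (ENSMUSG00000020914; chr11:98992943-99024189) each had at least 1 UMI, and where *C1qa*, *C1qb* and *C1qc* together had at least 3 UMIs per 10000. Barcodes with 100 or more UMIs per 10000 of the neutrophil genes *S100a8* and *S100a9*, or with any UMI of *Cd3e*, *Cd79a* or *Cd209a*, were left out. Of 20500 barcodes in the 4 libraries, 462 met this rule, of which 115 came from control at dpi2, 37 from the library labelled KO at dpi2, 181 from control at dpi4 and 129 from the library labelled KO at dpi4. They are compared below with the other 9417 barcodes that met the same rule except for *Mki67* and *Top2a*, called other C1q-gated macrophages. Because the rule read these genes in the same cells, their levels, and any gene set between cycling and other macrophages of a library, are given as a description.

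The cells came from tibialis anterior muscles damaged by cardiotoxin, a toxin of *Naja pallida* venom that kills muscle fibres, and carried the leukocyte protein CD45, by which magnetic beads had captured them. All mice were males of a C57BL/6 background, 8 to 12 weeks old, with *Bach1* alleles floxed around exon 4, which encodes part of the DNA-binding domain. The control mice carried the floxed alleles alone (Bach1 fl/fl), whereas the KO mice also carried Lyz2-Cre, which drives recombination in cells that use the *Lyz2* promoter, that is monocytes, macrophages and neutrophils, so that other CD45+ cells of a KO mouse kept the gene. Each genotype was profiled at 2 and 4 days post-injury (dpi2 and dpi4) in 1 droplet-based 3′ library (10x Genomics) per group, so no difference between libraries has a replicate check, animals and libraries cannot be told apart, and every interval below is a 95% interval for counting error only.

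A macrophage that enters the cell cycle first licenses its replication origins and copies its DNA in S phase, then builds a spindle and separates its chromosomes in mitosis. The genes of S phase are known targets of the E2F factors. Many genes of mitosis are held off in resting cells by the DREAM complex and switched on later through B-MYB and FOXM1. Macrophages of injured muscle derive largely from blood monocytes and partly from resident cells, and both can divide in the tissue. BACH1 is a heme-binding repressor of transcription, whose known targets include *Hmox1* and other genes of heme breakdown, iron export and glutathione synthesis.

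The label was first checked in the cycling macrophages themselves. *Bach1* (ENSMUSG00000025612; GRCm38, chr16:87698945-87733346) had 108 CPM in control and 127 CPM in KO at dpi2, and 155 and 173 CPM at dpi4, where CPM is the UMIs of a gene per 1000000 UMIs summed over the cycling macrophages of a library. The KO over control ratio was 1.18 at dpi2 and 1.11 at dpi4, so the total *Bach1* level did not follow the label. The count covers the whole transcript from its 3′ end and cannot show whether exon 4 was lost, and the KO libraries are therefore called by their label. *Lyz2* (chr10:117277331-117282321), the locus that carries Cre, did follow the label, with 6311 CPM against 10.8 at dpi2 and 12017 against 23.1 at dpi4. Its near-identical neighbour *Lyz1* ran the other way, at 44.6 against 719 CPM and 18.0 against 316, and reads of this pair of genes may have been assigned to either copy.

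Most of the cells held RNA of macrophage markers that the rule had not used. All 5 of *Adgre1*, *Cd68*, *Fcgr1*, *Mertk* and *Csf1r* were detected in 80 of 115, 29 of 37, 131 of 181 and 91 of 129 cycling macrophages (control and KO at dpi2, then control and KO at dpi4), at least 4 of them in 110, 35, 166 and 119, and at most 1 of them in 1, 0, 6 and 2. The share of cells of other types with a UMI of these markers was not computed. *Birc5*, a subunit of the chromosomal passenger complex and a further marker of division, had 205, 86.5, 254 and 276 CPM, against 0.805 to 6.44 CPM in the other C1q-gated macrophages. No barcode of a cycling macrophage recurred as one in another library, and pairs of libraries shared 2 to 14 barcodes in all. The cycling macrophages held 31827, 39933, 31089 and 28284 UMIs in the median cell, from 1.83 to 2.18 times the median of the other C1q-gated macrophages of the same library.

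RNA of other cell types moved with the day. Over 10 UMIs per 10000 of a marker list of another cell type were found in 1 of 115 and 0 of 37 cycling macrophages at dpi2, but in 17 of 181 (control) and 5 of 129 (KO) at dpi4. Of the 17, some of which passed the limit for more than 1 list, 11 held fibroblast genes at 20.3 to 381 UMIs per 10000, 4 held T or NK genes, 3 muscle genes and 1 each dendritic and endothelial genes. Among the other C1q-gated macrophages of dpi4 the limit was passed by 7.05% in control and 4.73% in KO. These cells are kept in all values below unless it is said that they were left out, and Scrublet, a doublet caller, marked 6 of the 17 and 1 of the 5.

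Not every cell that met the rule carried a full division program. Where a cell had exactly 1 UMI of *Mki67* and 1 of *Top2a*, just inside the rule (12, 11, 28 and 16 cells in the 4 libraries), its replication genes had a median of 10.9, 6.20, 5.997 and 6.001 UMIs per 10000, and its mitosis genes 12.8, 12.7, 11.3 and 14.9. Just outside the rule, macrophages with only 1 of the genes had 7.13, 6.51, 5.44 and 5.90 UMIs per 10000 of replication genes and 12.9, 12.0, 10.1 and 11.6 of mitosis genes. Those with neither had 5.06 to 5.95 and 9.91 to 12.0. Just inside the rule, replication genes of control at dpi2 and mitosis genes of KO at dpi4 lay above the medians of cells without either gene, and the other values lay closer to them.

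A stricter count was therefore added after the values had been seen. A cycling macrophage was said to have raised cycle lists where its replication and mitosis genes together exceeded the 99th percentile of the macrophages of its library with no UMI of *Mki67* and *Top2a*, that is 52.4, 49.2, 39.7 and 39.7 UMIs per 10000. This held in 99 of 115 cells of control at dpi2 (86.1%, exact binomial interval 78.4 to 91.8%) but in 18 of 37 of the library labelled KO at dpi2 (48.6%, 31.9 to 65.6%). At dpi4 it held in 114 of 181 (63.0%, 55.5 to 70.0%) and 102 of 129 (79.1%, 71.0 to 85.7%). From 2 to 5 cells per library lay within 10% of the limit. The cells without raised lists had a median of 1 UMI of *Mki67* and 1 of *Top2a* in every library. This selection reads the replication and mitosis genes, so the levels of these lists in the selected cells are a description, and any narrowing of a difference in them follows in part from the selection. Results for the whole group and for the cells with raised lists are set side by side below where they differ.

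The first question was whether cycling macrophages were as frequent in KO as in control muscle and at dpi4 as at dpi2. Since a cell with more UMIs is more likely to show both genes, every C1q-gated barcode was thinned to 5000 UMIs. Cycling macrophages then made up 2.57% (56 of 2183; 1.94 to 3.32%) of the C1q-gated macrophages of control at dpi2 and 1.05% (11 of 1049; 0.525 to 1.87%) of the library labelled KO. At dpi4 they made up 2.27% (74 of 3263; 1.78 to 2.84%) and 2.38% (61 of 2568; 1.82 to 3.04%). The KO library at dpi2 was the low one, and the other 3 lay within 0.30 percentage points of each other.

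The difference between KO and control was -1.52 percentage points at dpi2 (Newcombe interval, -2.43 to -0.49) and 0.11 at dpi4 (-0.69 to 0.93). Where *Mki67* or *Top2a* sufficed, this difference was -1.53 at dpi2 (-3.42 to 0.49) and -2.67 at dpi4 (-4.35 to -0.98). From dpi2 to dpi4 the share differed by -0.30 points in control (-1.19 to 0.55) and by 1.33 points in KO (0.34 to 2.17). The interval of KO took in 0 at full depth (1.37, -0.033 to 2.63) and with mitochondrial shares under 5% (0.977, -0.173 to 2.04), and the difference in control was 4.95 (3.27 to 6.59) where *Mki67* or *Top2a* sufficed and 0.783 (0.255 to 1.34) over all kept barcodes. At full depth the shares were 4.88%, 3.22%, 5.09% and 4.59%. As a background, barcodes rich in neutrophil RNA held both genes in 0 of 563, 0 of 963, 0 of 79 and 0 of 22 at full depth, which allows, at 3 counts of the total, shares of up to 0.533%, 0.312%, 3.797% and 13.6%, at median depths of 2379 to 3527 UMIs, far below those of the macrophages. *Mki67* was seen in 9 of 563, 13 of 963, 2 of 79 and 0 of 22 of them and *Top2a* in 5, 5, 1 and 1, so the 0 counts hold only at that depth. Among all barcodes kept, whatever their type, the unthinned share was 1.91% and 0.974% at dpi2 and 4.19% and 3.65% at dpi4, while C1q-gated macrophages themselves were 2358 of 6010, 1150 of 3799, 3559 of 4323 and 2812 of 3533 of these barcodes. With the stricter count at full depth the KO minus control difference was -2.63 points at dpi2 (-3.73 to -1.45) and 0.42 at dpi4 (-0.49 to 1.36).

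**Figure D1:**
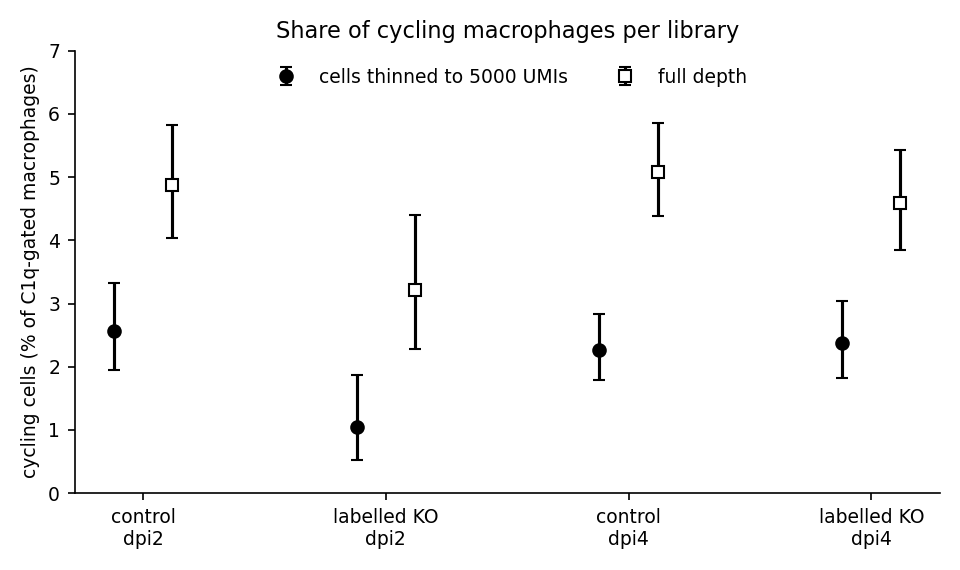
Percent of C1q-gated macrophages that were cycling in each of the 4 libraries, with every cell thinned to 5000 UMIs (filled circles) and at full depth (open squares); bars are exact 95% binomial intervals for counting error. The library labelled KO at dpi2 is the lowest at either depth, at 1.05% and 3.22%, and the other 3 lie between 2.27% and 2.57% after thinning.

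The second question was which stage of the cycle the cells were in. Replication genes (2 lists, for licensing and for DNA synthesis) had a median of 45.8 UMIs per 10000 in cycling macrophages of control at dpi2, 13.3 in KO at dpi2, and 12.0 and 11.2 in control and KO at dpi4. Mitosis genes (5 lists) had 55.1, 17.4, 49.6 and 63.2. In the other C1q-gated macrophages these medians were 5.12 to 6.07 and 9.93 to 12.1. Mitosis genes exceeded replication genes in 60 of 115 cells (52.2%) of control at dpi2, in 24 of 37 (64.9%) of KO at dpi2, and in 152 of 181 (84.0%) and 105 of 129 (81.4%) at dpi4. Part of these counts is the baseline, in which mitosis genes are the larger sum: in cells without raised lists, described above, it was the larger in 7 of 16, 17 of 19, 61 of 67 and 24 of 27.

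Among the cells with raised lists the libraries of 1 day lay closer to each other than those of 1 label. At dpi2, replication genes had a median of 52.7 UMIs per 10000 in control and 57.3 in KO, and at dpi4 of 21.6 and 15.1. Mitosis genes had 60.0 and 41.2 at dpi2, and 97.4 and 87.9 at dpi4. Mitosis genes were the larger in 53 of 99 cells of control (53.5%, exact binomial interval 43.2 to 63.6%) and 7 of 18 of KO (38.9%, 17.3 to 64.3%) at dpi2, against 91 of 114 (79.8%, 71.3 to 86.8%) and 81 of 102 (79.4%, 70.3 to 86.8%) at dpi4. These intervals cover the cells of 1 library each, selected on the same genes, and KO at dpi2 rests on 18 cells, so a difference between days or labels is a description.

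**Figure D2:**
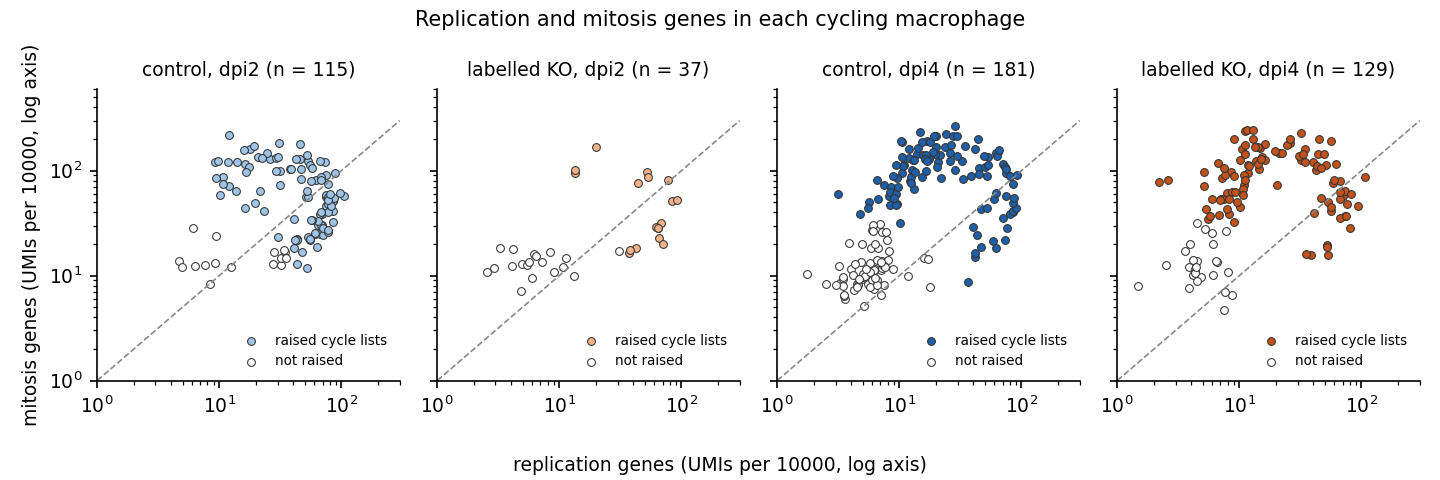
Replication genes (x axis) against mitosis genes (y axis), both in UMIs per 10000 on log axes, for each cycling macrophage, 1 panel per library; filled points have raised cycle lists, open points do not, and the dashed line marks equal levels. At dpi2 the filled points lie on either side of the line (53 of 99 and 7 of 18 above it), at dpi4 mostly above it (91 of 114 and 81 of 102), and 19 of the 37 cells of KO at dpi2 are open points in the lower left.

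The promoters of these genes show the words by which the groups are usually told apart, and 7 are printed as examples, since the cells were staged with these genes. The cell cycle homology region (CHR) word TTTGAA and the CCAAT word are read by the complexes of late cycle genes and by NF-Y, and E2F words were taken as TTTCGCGC, TTTGGCGC, TTTCCCGC and TTCCCGCC, of which the last pair overlap each other, all searched on both strands. RefSeq promoters of 300 bases (GRCm38.p6) were at hand for 74 of 96 mitosis genes, 44 of 56 replication genes and 27025 genes in all. A gene counted where any of its promoters held the word. TTTGAA stood in 45 of 74 mitosis genes (60.8%), 9 of 44 replication genes (20.5%) and 20.2% of all 27025 genes. An E2F word stood in 25 of 44 replication genes (56.8%), 6 of 74 mitosis genes (8.1%) and 4.0% of all genes. CCAAT stood in 71.6% of mitosis genes, 59.1% of replication genes and 41.1% of all genes, and TTTGAA together with CCAAT in 38 of the 74 mitosis genes (51.4%) and 9.0% of all genes. These are matches of letters and not sites shown to be bound. The 7 examples were picked by their UMIs among genes that held TTTGAA (mitosis) or an E2F word (replication) in the printed stretch. Those capitals are thus given by the choice. Within that stretch of 120 bases, TTTGAA was found in 31 of 74 mitosis genes (41.9%) and 7.9% of all genes. There, 12 of 44 replication genes (27.3%) held an E2F word, against 1.9% of all genes. Capitals mark the TTTGAA and CCAAT words, or their other strand, in 4 mitosis genes (*Ube2c*, which marks mitotic proteins for destruction, the kinetochore gene *Cenpf*, the kinase subunit *Cks1b* and the kinase *Cdk1*), each from 100 bases before to 20 bases after the start of transcription.
*Ube2c*, chr2:164769829-164769948, plus strand: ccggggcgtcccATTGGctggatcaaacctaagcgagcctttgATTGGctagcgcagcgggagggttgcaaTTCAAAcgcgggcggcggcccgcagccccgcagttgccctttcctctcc
*Cenpf*, chr1:189688067-189688186, minus strand: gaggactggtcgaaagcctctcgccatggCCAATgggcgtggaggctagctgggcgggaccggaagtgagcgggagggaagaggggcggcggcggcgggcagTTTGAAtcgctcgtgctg
*Cks1b*, chr3:89418272-89418391, minus strand: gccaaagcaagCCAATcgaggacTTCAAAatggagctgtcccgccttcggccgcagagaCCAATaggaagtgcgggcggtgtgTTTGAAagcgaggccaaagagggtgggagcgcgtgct
*Cdk1*, chr10:69352893-69353012, minus strand: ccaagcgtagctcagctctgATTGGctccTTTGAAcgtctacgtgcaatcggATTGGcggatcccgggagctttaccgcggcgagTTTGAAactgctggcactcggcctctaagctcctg

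In the same window of 3 replication genes, capitals mark E2F and CCAAT words. *Rrm1* encodes the large subunit of ribonucleotide reductase, *Mcm6* a subunit of the replicative helicase and *Hells* a chromatin remodeller of S phase.
*Rrm1*, chr7:102441595-102441714, plus strand: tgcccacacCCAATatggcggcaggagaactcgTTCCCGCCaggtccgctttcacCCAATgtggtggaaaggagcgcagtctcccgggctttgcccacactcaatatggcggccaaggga
*Mcm6*, chr1:128359686-128359805, minus strand: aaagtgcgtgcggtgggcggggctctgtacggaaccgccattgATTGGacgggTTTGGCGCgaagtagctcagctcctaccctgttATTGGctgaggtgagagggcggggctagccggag
*Hells*, chr19:38930890-38931009, plus strand: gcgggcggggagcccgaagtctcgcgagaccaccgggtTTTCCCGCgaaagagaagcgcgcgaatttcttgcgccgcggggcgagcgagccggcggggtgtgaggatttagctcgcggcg

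*Ube2c* had 200 CPM in control and 75.7 in KO at dpi2, and 217 and 278 at dpi4. *Rrm1* had 226 and 124, then 150 and 145, and *Hells* had 122 and 86.5, then 41.2 and 35.2. The mitosis gene was thus lowest in KO at dpi2, and both replication genes were highest in control at dpi2.

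Genes of the cell cycle stood well above the other macrophages of the same library, with many other genes. A rule of size was used for all comparisons of summed UMIs: a ratio of at least 2-fold in either direction, an interval (exact conditional binomial) that left out 1, and at least 50 UMIs in the pair. By this rule 7.88%, 4.14%, 10.8% and 6.4% of the genes tested were higher in cycling macrophages in the 4 libraries, and 3.37%, 1.35%, 1.42% and 2.47% lower. Of the 9972 genes tested in all 4 libraries, 256 were higher and 5 lower in every library. Of the 143 cycle genes tested, 114 were among the 256, a share that the choice of cells by *Mki67* and *Top2a* favours. Outside the fixed lists, genes far above the other macrophages were *2810417H13Rik* (the PCNA-binding factor Pclaf), with 377, 242, 243 and 239 CPM against 2.18 to 6.24, and *Aspm*, a protein of the spindle poles, with 35.6, 26.4, 79.1 and 83.6 against 0.624 to 1.06. Others were *Exo1*, *Brip1*, *Brca1*, *Mtfr2*, *Ube2t* and *Diaph3*. The 5 genes lower in every library were *Plac8*, of the monocyte list, and *Gm26870*, *Mirt1*, *Scimp* and *Hcar2*, and the last 4 had at most 68 UMIs in the cycling macrophages of a library.

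Beyond the cycle, cycling macrophages of dpi2 held less monocyte RNA. *Ly6c2*, a surface protein of inflammatory monocytes, had 106 CPM in cycling against 656 in other macrophages of control at dpi2 and 26.4 against 168 in KO, then 22.8 against 43.5 and 13.9 against 65.0 at dpi4. Of the 15 monocyte genes, 11 were lower in cycling macrophages of control at dpi2 and 7 of KO, with list medians of -1.52 and -0.79 (log2), against 2 and 3 at dpi4. *Lyve1*, the hyaluronan receptor of resident-like macrophages, went the other way in control, with 140 CPM against 18.5 at dpi2 and 18.6 against 2.11 at dpi4, although at dpi2 its UMIs came from 27 of 115 cells. In KO it had 49.3 against 23.1, then 1.74 against 1.27. Ribosome biogenesis genes, which serve growth, had medians of 0.80, 0.37, 0.91 and 0.56 and none lower, with 9, 2, 10 and 7 of 25 higher. The MHC class II genes, which present antigen, had medians of 0.16, 0.40, -1.11 and -0.08, and 5 of 7 were lower in cycling macrophages of control at dpi4 alone of the 4 libraries, where *Cd74* had 1003 CPM against 2392. Whether these differences varied between libraries was not tested.

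Between KO and control, many mitosis genes and few replication genes were lower in KO at dpi2, and few of either passed the rule at dpi4. At dpi2, 390 of 7907 genes passed the rule, 169 higher (2.14%) and 221 lower (2.79%) in KO, or 4.93% in all. At dpi4, 349 of 9442 passed, 53 higher (0.561%) and 296 lower (3.13%), or 3.7% in all. The median log2 ratio of all genes was -0.04 and -0.05. When the cells with RNA of other cell types were left out, 53 were higher and 93 lower at dpi4. The KO ratios at dpi2 rest on 37 cells, and those of mitosis genes on few of them: 1 cell held 81.3% of the *Cenpf* UMIs and 61.6% of those of *Ube2c*.

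Of the mitosis lists at dpi2, the spindle motors and microtubule proteins had 14 of 21 genes lower and a median log2 ratio of -1.11, the kinetochore and checkpoint genes 15 of 27 and -1.08, the chromosomal passenger and cytokinesis genes 10 of 16 and -1.09, the mitotic entry kinases and cyclins 8 of 18 and -0.85, and the anaphase genes 5 of 12 and -0.69. None was higher. *Foxm1*, the transcription factor of the mitotic program, had 32.7 CPM in control and 6.76 in KO at dpi2, then 33.4 and 35.2. *Ccnb2*, a mitotic cyclin, had 61.1 and 23.0, then 111 and 135. *Nusap1*, which bundles spindle microtubules, had 102 and 35.1, then 122 and 138. For each, KO at dpi2 was the low value, but with raised lists *Ccnb2* and *Nusap1* no longer passed the rule, at log2 ratios of -0.72 and -0.89, and with at least 2 UMIs of both cycle genes *Ccnb2* had -0.44 (-1.02 to 0.10).

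Replication genes were less apart. None of the 30 DNA synthesis genes and 3 of the 25 licensing genes passed the rule as lower at dpi2, with medians of -0.61 and -0.52, and all 30 and 24 of 26 had a log2 ratio below 0. *Pcna*, the sliding clamp of the polymerases, had 301 CPM in control and 293 in KO at dpi2. *Rrm2*, the small subunit of ribonucleotide reductase, had 146 and 87.2. Of the histones and chromatin proteins 5 of 19 were lower (median -0.84), all of them histone genes, such as *Hist1h1b* with 319 and 127 CPM. Condensin genes had a median of -0.53 with 2 of 12 lower.

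The cells with raised lists were selected on these same genes, which left out 19 of 37 cells of KO and 16 of 115 of control at dpi2, so the medians below are bound up with that selection. There, the KO over control medians at dpi2 were 0.05 for licensing (0 of 25 past the rule), 0.02 for DNA synthesis (0 of 30), -0.23 for mitotic entry (2 of 18 lower), -0.42 for the kinetochore list (3 of 27 lower), -0.51 for the spindle list (3 of 21 lower) and -0.42 for the passenger list (0 of 16). *Ube2c* and *Cenpf* no longer passed the rule there, at log2 ratios of -0.73 and -0.84. At dpi4 the medians of the 9 cycle lists over all cycling macrophages lay between -0.07 and 0.14, and 2 genes passed the rule as lower, 1 of them *Hist1h2ap*, with 154, 120, 253 and 44.4 CPM in the 4 libraries, a histone gene with near-identical copies whose count is uncertain.

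**Figure D3:**
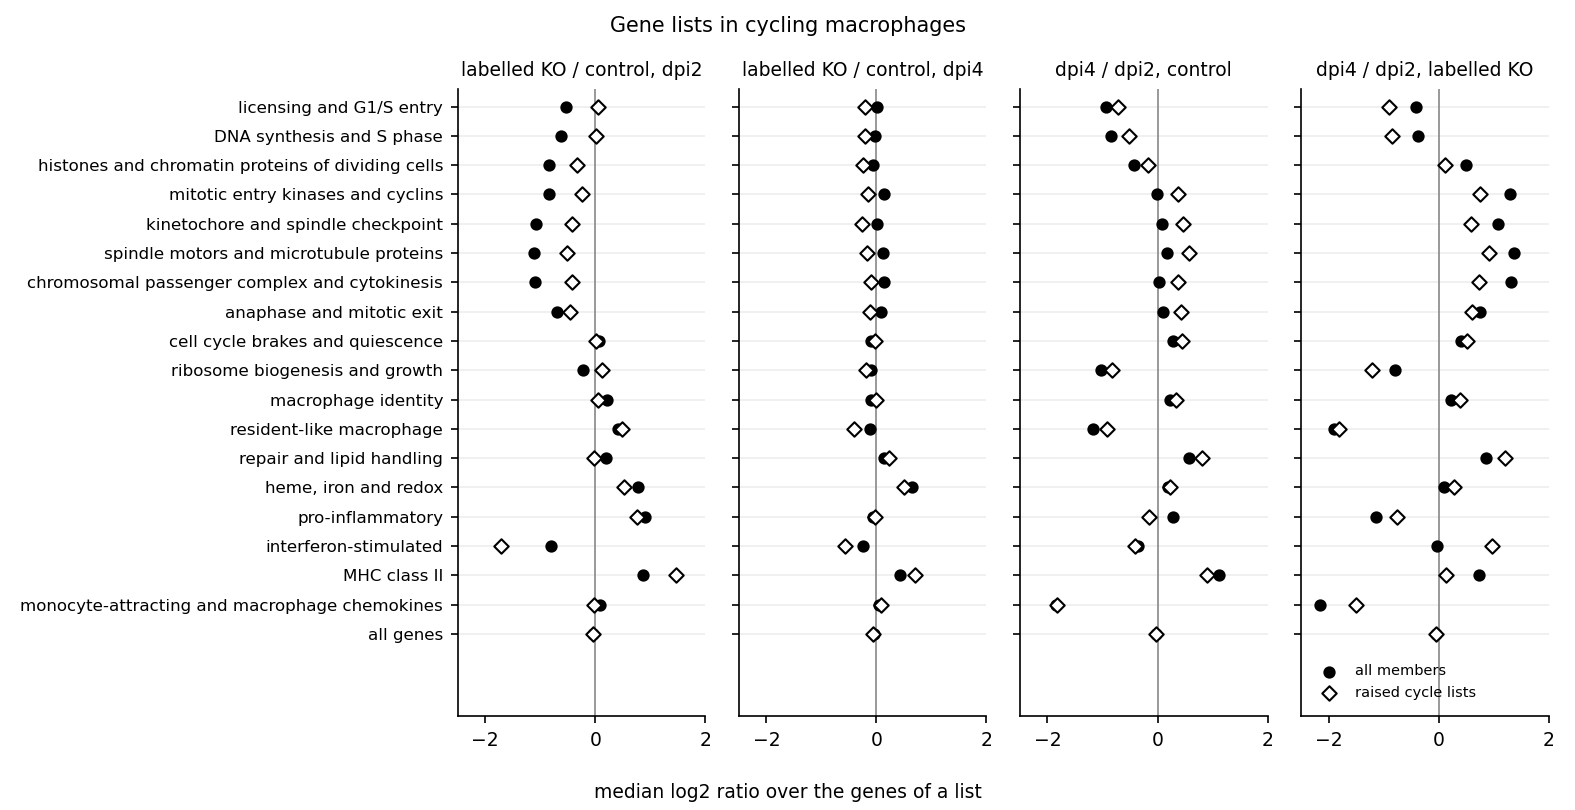
Median log2 ratio (x axis) over the genes of 18 lists and of all genes (rows) in cycling macrophages, for KO over control at dpi2 and dpi4 and for dpi4 over dpi2 in control and KO (panels); filled circles (all members in the legend) are all cycling macrophages, open diamonds those with raised cycle lists. At dpi2 the 8 cycle lists shown of KO over control lie between -1.11 and -0.52 for all cells and between -0.51 and 0.05 for the cells with raised lists, and at dpi4 they lie between -0.26 and 0.14.

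Several heme, iron and redox genes were higher in KO on each day. Of the 20 tested, 7 were higher in KO at dpi2 and 6 at dpi4, none was lower, and the medians were 0.77 and 0.65. *Hmox1* (ENSMUSG00000005413; chr8:75093621-75100589), which breaks heme down, had 695 CPM in control and 9547 in KO at dpi2, and 701 and 6569 at dpi4, ratios of 13.7 and 9.37. Its UMIs were found in 36 of 37 and 128 of 129 cycling macrophages of KO, and in 92.2% and 86.7% of those of control. The median cell of KO held 85.3 and 61.6 UMIs per 10000 against 3.24 and 1.13 in control, although 1 cell of control reached 158 at dpi2, within the range of KO.

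The transporters moved likewise. *Slc48a1*, which moves heme out of the phagosome, had 117 and 492 CPM at dpi2 and 124 and 475 at dpi4. *Slc40a1*, the iron exporter ferroportin, had 7.99 and 164, then 58.2 and 503, but in control at dpi2 a single cell held 90.3% of its 31 UMIs. *Spic*, a factor of iron-recycling macrophages, had 1.03 (4 UMIs) and 53.4, then 11.9 and 166, and was found in 16 of 37 and 95 of 129 cycling macrophages of KO against 3 of 115 and 30 of 181 of control. For all 3 the values of KO lay above those of control on each day.

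The ferritin heavy chain *Fth1*, which stores iron, had 10941 and 34327 CPM at dpi2 and 13809 and 41416 at dpi4. *Gclm*, part of the glutamate-cysteine ligase that makes glutathione, had 54.1 and 272, then 106 and 296. *Slc7a11*, which imports cystine for it, had 9.02 and 127, then 51.1 and 92.3, and passed the rule at dpi2 alone. The transferrin receptor *Tfrc*, which takes up iron and is used by dividing cells, had 120 and 212, then 52.4 and 98.2, ratios of 1.77 and 1.88 that stayed under 2. In the other C1q-gated macrophages the log2 ratio of *Hmox1* was 3.99 and 4.11 against 3.78 and 3.23 in cycling ones, and that of *Slc48a1* was 2.00 and 2.25 against 2.07 and 1.93. Over the list, 8 of 22 genes were higher there at dpi2 and 9 of 22 at dpi4, none lower (medians 0.60 and 0.70).

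Of the 7877 genes tested on both days, 14 passed the rule as higher in KO on each day and 8 as lower. These are 5.64% of the genes called at dpi2 and 6.30% of those called at dpi4. The 6 with the largest ratios were *Marco*, *Lyz1*, *Spic*, *Hmox1*, *Slc40a1* and *Slc48a1*. *Marco*, a scavenger receptor, had 0 UMIs in control at dpi2 and 157 in KO (106 CPM), at least 137-fold higher against the 3 UMIs that a count of 0 allows, and 0.477 and 34.7 CPM at dpi4. However, 1 cell held 91.1% of its UMIs in KO at dpi2 and 50.7% at dpi4, so these sums describe few cells. The 6 lowest were *Retnla*, *Lyz2*, *Nes*, *Lyve1*, *Fgfr1* and *Ddah2*. With the cells holding RNA of other cell types left out, *Csf1* took the place of *Slc48a1* among the highest and *Rsad2* that of *Fgfr1* among the lowest. *Retnla*, a secreted product of alternatively activated macrophages, had 18.6 and 174 CPM in control and no UMI in KO on either day, at least 9.15-fold and 234-fold lower, and 1 cell held 69.4% and 61.9% of the control UMIs. *Nes*, an intermediate filament gene, had 13.9 and 17.8 CPM in control against 0 and 3.47. *Lyve1* had 140 and 49.3 CPM at dpi2, and 18.6 and 1.74 at dpi4, where its UMIs came from 7 of 181 cells of control and 4 of 129 of KO. In cells with raised lists the dpi2 ratios of *Lyve1* and *Fgfr1* no longer passed the rule, at -0.57 and -0.94 (log2).

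Inflammatory and interferon genes differed at dpi2 in opposite directions. Of 15 pro-inflammatory genes 6 were higher in KO at dpi2 and none lower (median 0.90), and at dpi4 1 of 16 was higher and 1 lower (median -0.06). *Il1b*, the cytokine, had 111 and 698 CPM at dpi2, then 269 and 266. *Ptgs2*, the inducible cyclooxygenase, had 61.6 and 364, then 74.95 and 82.4. *Clec4n*, a C-type lectin (dectin-2), had 10.3 and 187, then 96.3 and 288, and was the only one of the list to pass on each day. KO at dpi2 was the high library for *Il1b* and *Ptgs2*. A median of 0.76 with 4 of 15 higher remained in the cells with raised lists, where *Nlrp3* and *Ccl3* no longer passed. Neutrophil marker RNA differed at dpi2 as well: 82 of 115 cycling macrophages of control and 15 of 37 of KO held no UMI of that list. At dpi4 these were 67 of 181 and 59 of 129, and no cycling macrophage of any library passed 10 UMIs per 10000. Whether this RNA bore on the ratios was not tested.

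Of 17 interferon-stimulated genes 7 were lower in KO at dpi2 and none higher (median -0.81), and 2 of 18 at dpi4 (median -0.24). *Isg15*, a ubiquitin-like modifier, had 170 and 68.3 CPM at dpi2 and 108 and 63.0 at dpi4. *Rsad2*, the antiviral enzyme viperin, had 172 and 70.3, then 242 and 115. *Irf7* had 141 and 70.3, then 103 and 110. In the cells with raised lists 15 of 17 were lower at dpi2 (median -1.72) and 4 of 18 at dpi4 (median -0.58), without a share of all genes to set beside them. Few cells set these sums in part: 1 cell of KO held 63.5% of the *Rsad2* UMIs at dpi2 and 38.5% at dpi4, and 1 cell of control held 31.0% at dpi4.

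**Figure D4:**
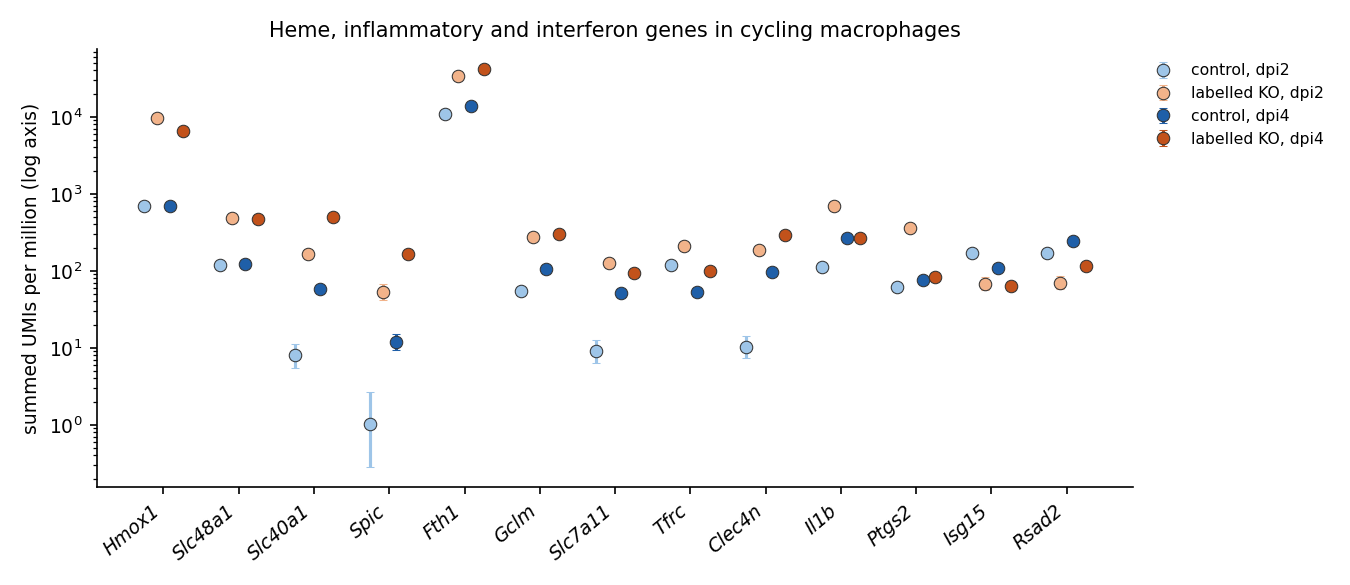
Summed UMIs in CPM (y axis, log scale) of heme, iron, inflammatory and interferon genes in the cycling macrophages of each library; colours are the 4 libraries and bars exact 95% Poisson intervals for counting error. *Hmox1*, *Slc48a1*, *Slc40a1*, *Spic*, *Fth1* and *Gclm* are higher in KO on each day, *Il1b* and *Ptgs2* are highest in KO at dpi2, and *Isg15* and *Rsad2* are lower in KO than in control on each day.

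The remaining lists are given by their medians, with counts or an upper limit of the counts. The repair and lipid genes had 4 of 19 higher and 1 lower at dpi2 (median 0.20) and 0 of 19 past the rule at dpi4 (0.14). *Gpnmb*, a glycoprotein of phagocytes that repair tissue, had 456 and 1064 CPM at dpi2, then 2514 and 2192, and *Igf1*, a growth factor for muscle, had 107 and 266, then 310 and 539. *Mmp12*, an elastase, was the gene lower in KO at dpi2, with 209 and 8.11 CPM, but 1 cell held 73.3% of the control UMIs. MHC class II genes had 2 of 6 higher at dpi2 (median 0.87) and none of 7 at dpi4 (0.43). Few cells carried the MHC class II sums at dpi2: the median cell held 1.06 UMIs per 10000 of the list in control and 1.12 in KO, and the highest 307 and 261. The monocyte list had 4 of 13 higher and 2 lower at dpi2 (0.26), the lower ones being *Ly6c2* with 106 and 26.4 CPM and *Plac8* with 207 and 53.4, and 2 of 12 lower at dpi4 (-0.10). Macrophage identity genes (0.22 and -0.10), resident-like genes (0.41 and -0.12), chemokines (0.09 and 0.04), glycolysis (0.14 and -0.11), ribosome biogenesis (-0.23 and -0.10), cell cycle brakes (0.06 and -0.10) and growth factor receptors with cyclin D (0.11 and 0.12) each had at most 3 genes past the rule on a day. Counts for each of these lists are not given here. Whether 1 of them exceeded the share of all genes, 4.93% at dpi2 and 3.7% at dpi4, cannot be read from this limit.

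Between the days, the cycling macrophages differed in more genes than between the labels. From dpi2 to dpi4, 1019 of 9399 genes passed the rule in control, 719 higher (7.65%) and 300 lower (3.19%), or 10.8% in all, and 782 of 8017 in KO, 483 higher (6.02%) and 299 lower (3.73%), or 9.75% in all. The median log2 ratio of all genes was -0.03 and -0.06. Of the 8004 genes tested in both genotypes, 206 were higher and 99 lower in each. These are 29.9% of the genes called in control and 39.0% of those called in KO. With the cells holding RNA of other cell types left out, control had 462 higher and 324 lower and KO 438 higher and 313 lower. The 8 genes with the largest ratios in both genotypes, *Mfap5*, *Mgp*, *Cilp*, *Gzma*, *Col8a1*, *Postn*, *Col1a1* and *Col3a1*, are genes of fibroblasts except *Gzma*, a protease of NK and T cells. *Col1a1* had 1.03 and 0 CPM at dpi2 and 398 and 176 at dpi4, and 1 cell held 97.2% of its UMIs in KO. The time log2 ratio of *Col1a1* in control was 8.59 with these cells and 3.02 without them.

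Chemokines that recruit monocytes were among the genes with the lowest ratios of dpi4 over dpi2. *Ccl2* (chr11:82035571-82037453), the main ligand of CCR2, had 2428 CPM in control and 1377 in KO at dpi2, and 245 and 153 at dpi4. *Ccl7* had 1661 and 1046, then 165 and 62.5, and *Ccl12* had 554 and 303, then 29.3 and 46.9. All 3 lay lower at dpi4 than at dpi2 in each genotype. *Ccl6* had 1654 and 1841 CPM, then 276 and 250. Of the chemokine list 6 of 9 genes were lower in control (median -1.85) and 5 of 9 in KO (-2.15), whereas *Cxcl16*, the ligand of CXCR6, was higher in both, with 84.6 and 103, then 334 and 341.

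Resident-like genes were lower too, 4 of 7 in each genotype, with medians of -1.17 in control and -1.91 in KO. *Cd163*, the scavenger receptor for hemoglobin, had 62.9 and 66.9 CPM at dpi2 and 4.93 and 6.20 at dpi4, and *Lyve1* is given above. *Mrc1*, the mannose receptor, had 1205 and 1161, then 346 and 286. *Jag1*, a Notch ligand, had 37.1 and 55.4, then 6.21 and 10.2. The neutrophil gene *S100a9* was among the 8 lowest, with 37.4 and 168, then 3.50 and 0.496 CPM, but 1 cell held 77.2% and 67.3% of its UMIs at dpi2. The monocyte list had 4 of 14 genes lower in control (-0.70) and 7 of 12 in KO (-1.65).

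Of the identity and repair lists some genes were higher at dpi4 and a few lower. *Apoe*, a carrier of lipids, had 2209 and 4950 CPM at dpi2 and 13066 and 11044 at dpi4. *Cx3cr1*, the fractalkine receptor, had 102 and 122, then 264 and 344. *Pltp*, a phospholipid transfer protein, had 82.5 and 115, then 364 and 310. For each gene, both libraries of dpi4 lay above both of dpi2. The identity list had 5 of 19 genes higher and 2 lower in control and 3 and 3 in KO, and the repair list 4 of 19 higher in control (median 0.57) and 7 of 18 in KO (0.85). MHC class II genes had 6 of 7 higher in control (1.12) and 1 of 6 in KO (0.72), with *H2-Aa* at 251 and 518, then 633 and 856 CPM.

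With the cells holding RNA of other cell types left out, the 8 genes with the largest ratios from dpi2 to dpi4 were *Ptgs1*, *Lag3*, *Hes1*, *Mfge8*, *Hpgd*, *Fam26f*, *Tmem176b* and *Mamdc2*. *Mfge8*, a bridge between phagocytes and dying cells, had 16.2 and 23.7 CPM at dpi2 and 140 and 351 at dpi4 over all cycling macrophages. *Hpgd*, which degrades prostaglandins, had 10.1 and 7.44, then 76.4 and 95.02, and *Hes1*, a target of Notch, had 4.12 and 2.03, then 43.1 and 28.8. They were found in 95, 76 and 56 of 181 cycling macrophages of control at dpi4.

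**Figure D5:**
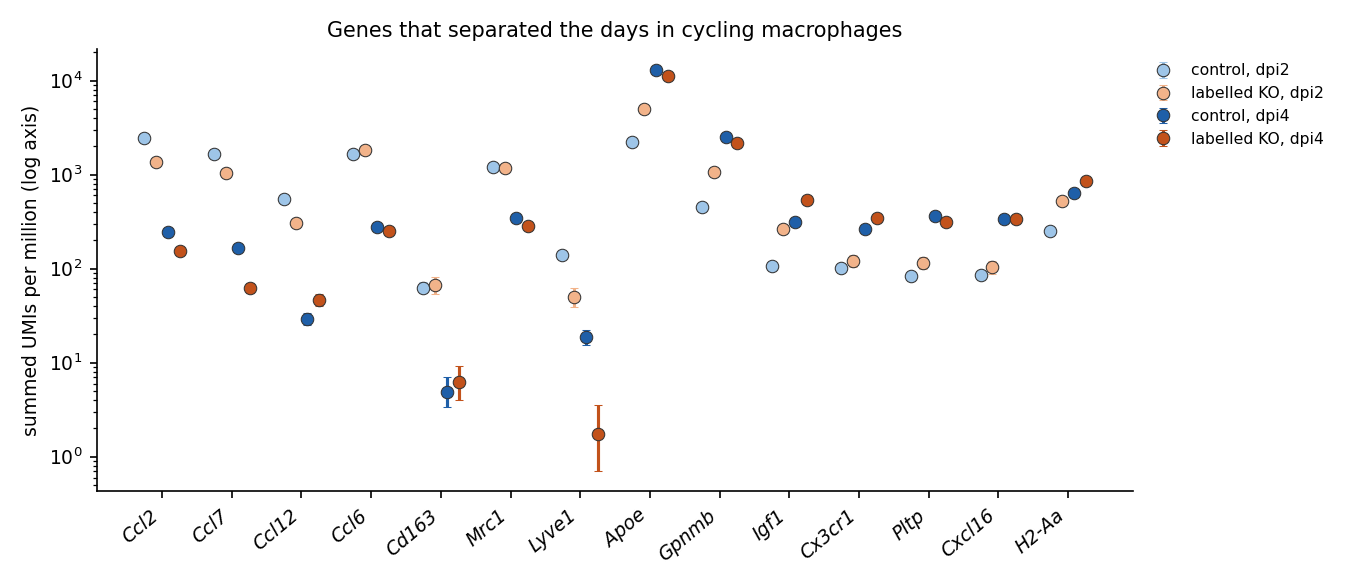
Summed UMIs in CPM (y axis, log scale) in the cycling macrophages of each library for genes of the chemokine, resident-like, identity, repair and MHC class II lists; colours are the 4 libraries and bars exact 95% Poisson intervals for counting error. *Ccl2*, *Ccl7*, *Ccl12*, *Ccl6*, *Cd163*, *Mrc1* and *Lyve1* are lower at dpi4 than at dpi2 in each genotype, and *Apoe*, *Gpnmb*, *Igf1*, *Cx3cr1*, *Pltp*, *Cxcl16* and *H2-Aa* are higher.

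The cycle lists differed between the days by stage. Replication genes past the rule were all lower at dpi4, more of them in control than in KO: in control 12 of 26 licensing genes (median -0.95) and 11 of 30 DNA synthesis genes (-0.84), and in KO 3 of 23 (-0.41) and 1 of 28 (-0.37), the last a share close to the 3.73% of all genes that were lower in KO. *Mcm2*, a subunit of the replicative helicase, had 113 and 105 CPM at dpi2 and 41.8 and 39.2 at dpi4, and *Cdc6*, which loads it, had 33.0 and 31.1, then 11.5 and 11.4. Mitosis genes had medians between -0.003 and 0.18 in control, with 1 gene past the rule, and between 0.75 and 1.37 in KO, where 17 of 21 spindle genes, 14 of 27 kinetochore genes, 14 of 19 mitotic entry genes, 11 of 16 passenger genes and 5 of 12 anaphase genes were higher. *Cenpf* had 93.1 and 32.4 CPM, then 176 and 200. In the cells with raised lists these medians had the same sign in both genotypes: licensing had -0.71 in control and -0.90 in KO and DNA synthesis -0.51 and -0.84. Mitotic entry had 0.37 and 0.74 and the spindle list 0.57 and 0.92. Those cells were selected on these same genes, with a higher limit at dpi2 than at dpi4, and number 18 in KO at dpi2. The shared signs are therefore a description.

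Few histone genes passed the rule between the days. *H2afv* had 136 and 71.0 CPM at dpi2 and 249 and 281 at dpi4, and *H2afz* had 1465 and 1073, then 1905 and 2541, each the lowest in KO at dpi2. Of the histones and chromatin proteins none of 19 passed the rule in control (median -0.42), and 3 of 18 were higher and 1 lower in KO (0.50). The condensin list had 0 of 12 past the rule in control (-0.11) and 2 of 12 higher in KO (0.40).

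Of the ribosome biogenesis genes, which serve growth, many were lower at dpi4, 13 of 25 in control (median -1.02) and 12 of 24 in KO (-0.79), and all 25 had a log2 ratio below 0 in each. *Srm*, which makes spermidine, had 76.8 and 65.6 CPM at dpi2 and 25.6 and 21.6 at dpi4. Of the brakes and quiescence genes 7 of 20 were higher in control (0.28) and 5 of 19 higher and 2 lower in KO (0.41). *Cdkn1b*, the inhibitor p27 of cyclin-dependent kinases, had 24.2 and 25.01, then 53.0 and 58.1. *Ccng2*, a cyclin of arrested cells, had 14.7 and 12.2, then 44.4 and 40.7. Glycolysis genes had 0 of 16 past the rule in either genotype (0.05 and -0.29), and growth factor receptors with cyclin D had 3 of 21 higher and 1 lower in control (0.19) and 2 of 20 higher and 1 lower in KO (-0.03).

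Pro-inflammatory genes, read by the ratio of each gene and not by the summed level of the list, differed between the genotypes in their course. In KO 10 of 16 were lower at dpi4 than at dpi2 (median -1.13), and in control 2 of 15 were higher and 2 lower (0.27). *Il1b* was higher at dpi4 in control, at 2.43 times, and lower in KO, at a ratio of 0.382. In the cells with raised lists neither ratio of *Il1b* passed the rule and the list medians were -0.16 in control and -0.77 in KO. Interferon-stimulated genes had 0 of 18 past the rule in control (-0.36) and 2 of 18 higher in KO (-0.03). In the cells with raised lists the latter median was 0.97, with 8 of 17 higher. Heme, iron and redox genes had 3 of 20 higher and 1 lower in control (0.19) and 3 of 20 higher and 2 lower in KO (0.09), and *Tfrc* was lower at dpi4 in each genotype, at ratios of 0.438 and 0.464. These differences between the courses were not tested.

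The same rule applied to the other C1q-gated macrophages showed how far these differences were shared. There, 4.24% of genes passed for KO over control at dpi2 (2.03% higher, 2.21% lower) and 4.23% at dpi4 (1.59% higher, 2.63% lower), and 19.3% passed from dpi2 to dpi4 in control (13.5% higher, 5.85% lower) and 16.6% in KO (11.7% higher, 4.94% lower). For KO over control, 52 genes were higher and 55 lower in both kinds of cell at dpi2, which is 27.4% of the calls in cycling and 23.1% of those in other macrophages, and 28 and 86 at dpi4, which is 32.7% and 21.7%. From dpi2 to dpi4, 485 genes were higher and 179 lower in both in control (65.2% and 28.4% of the calls) and 264 and 163 in KO (54.6% and 22.2%). Genes tested in both kinds of cell numbered 7857 at dpi2 and 9397 at dpi4 for KO over control, and 9356 in control and 7972 in KO between the days. The other macrophages of a library held 26096868 to 58666271 UMIs against 1479467 to 6284560 in the cycling ones. Whether this bore on the number of genes past the rule was not tested.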

How the data were processed

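CD45+ cells of cardiotoxin-injured muscle were profiled in 4 droplet libraries. The authors aligned the reads to mm10 with Cell Ranger 6.1.2 (per the labels) and deposited raw UMI counts of 27998 genes per barcode; the annotation is not given in the sources used here. Library totals were 57010520 to 80228489 UMIs.

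Counts were summed over the cycling macrophages of a library (1479467 to 6284560 UMIs) and divided by that total (CPM), so that a shift of a few abundant genes moves all others. Ratios have exact conditional binomial, CPM exact Poisson, shares exact binomial and differences of shares Newcombe intervals, all at 95% and for counting error only. No p-value was computed, since each group is 1 library and the members were chosen on the same counts. A gene passed at a difference of 2-fold or more, given an interval without 1 and a sum of 50 or more UMIs over both libraries; list medians use genes with at least 20 UMIs, for lists with at least 4 such genes. For shares, cells were thinned to 5000 UMIs and shallower ones left out (101 to 296 per library). A count of 0 was given a floor of 3 UMIs.

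The genes named were those of 22 lists, the 6 highest and 6 lowest for KO over control on both days, the 8 highest and 8 lowest for dpi4 over dpi2 in both genotypes, and the 10 highest and 10 lowest outside the lists for cycling over other macrophages in all 4 libraries, ranked by the smaller ratio. *Plac8* is named as a list gene, and genes with opposite ratios in a pair of comparisons were added; some genes that these rules select are not reported here. The members and lists were chosen with earlier results of these data known.

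Alternatives were thinning to 2000 or 10000 UMIs, *Mki67* or *Top2a*, at least 2 UMIs of both, at least 10 C1q UMIs per 10000, mitochondrial shares under 5%, Scrublet (scanpy 1.11.5; the top scores removed at 0.8% per 1000 barcodes), TMM factors (edgeR 4.0.16, R 4.3.3), other folds and minimums, and a reference without either gene. Scripts ran in python 3.11.15 (scipy 1.17.1) and were tested on simulated data. Promoters came from RefSeq, GRCm38.p6.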

Additional observations from a re-analysis of the deposited data

Results flagged for a closer look

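A gene or list was picked out here where its log2 ratio ran in opposite directions in a pair of comparisons, past the rule of size in each for a gene, and for a list with the medians of its genes' interval bounds on the same side of 0 as its median in each. With 1 library per group, none of these differences between comparisons was tested.

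For KO over control, 5 genes named here had opposite log2 ratios at dpi2 and dpi4. *Il10*, an anti-inflammatory cytokine, had 1.60 and -1.01, with UMIs in 11 of 37 and 10 of 129 cycling macrophages of KO, and its dpi4 ratio was 0.93 with at least 2 UMIs of both cycle genes. *Mgl2*, a lectin, had 1.66 and -1.06, and 1 cell held 91.4% of its UMIs in KO at dpi2. *Rnase6*, an antimicrobial ribonuclease, had -1.90 and 1.02. *Cxcl14*, a chemokine, had -1.25 and 1.08, and 1 cell held 69.6% of its UMIs in KO at dpi4, where the ratio was -0.42 without the cells holding RNA of other cell types. *Iigp1*, an interferon-induced GTPase, had -1.93 and 1.01, and rested on 5 UMIs in KO at dpi2.

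From dpi2 to dpi4, 5 genes named here had opposite log2 ratios in control and KO. *Il1b* had 1.28 in control and -1.39 in KO. *C3*, a complement component, had 1.45 and -1.56. *Bcl2a1a*, a survival gene of a family of close copies, had 1.51 and -1.30, and 1 cell held 79.3% of its UMIs in KO at dpi2. *Zfp667* had 1.26 and -1.09, but -1.38 and 0.22 after thinning to 5000 UMIs. *Dppa3* had -1.33 and 3.25, the latter over 2 UMIs in KO at dpi2.

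For lists, the histones and chromatin proteins of dividing cells had medians of -0.42 in control and 0.50 in KO from dpi2 to dpi4. The pro-inflammatory list had 0.27 in control and -1.13 in KO, but in control -0.16 with raised cycle lists and -0.069 with at least 2 UMIs of both cycle genes.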

How the results depend on the processing

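With 1 library per group and 37 to 181 cells, an interval covers counting error but not the spread between mice. No paired analysis was possible because the labels carry no replicate numbers and each group is 1 library. The counts with raised cycle lists and without the cells holding RNA of other cell types were chosen after seeing the data, and where a value moved the cause was not tested. The directions of the KO minus control share at dpi2 and of the heme list for KO over control held in the alternatives run.

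The KO minus control share at dpi2 was -2.88 points with cells thinned to 10000 UMIs and -2.63 with raised lists. Where *Mki67* or *Top2a* sufficed it was -1.53 at dpi2, with an interval (-3.42 to 0.49) that took in 0, and -2.67 at dpi4 (-4.35 to -0.98), where the direction turned from 0.11. The dpi4 difference was also below 0 at full depth (-0.498), with cells thinned to 2000 UMIs (-0.073) and with mitochondrial shares under 5% (-0.199). Each of these intervals took in 0. From dpi2 to dpi4 the choice of *Mki67* or *Top2a* gave 4.95 points in control and 3.802 in KO, thinning to 10000 gave 2.67 in KO, and all kept barcodes as denominator gave 0.783 in control.

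Genes past the rule (KO over control at dpi2 and dpi4, then dpi4 over dpi2 in control and KO) numbered 161, 78, 439 and 311 with cells thinned to 5000 UMIs, 1060, 761, 2525 and 1854 at 1.5-fold, 141, 85, 442 and 318 with at least 200 UMIs, and 700, 920, 1956 and 1315 with no minimum. For KO over control at dpi4 they numbered 213 without doublets, 168 with mitochondrial shares under 5% and 146 without the cells holding RNA of other cell types, and for control between the days 674 with at least 2 UMIs of both genes.

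With at least 2 UMIs of both genes, KO over control medians at dpi2 were 0.021 for licensing, which reversed, -0.046 for DNA synthesis, -0.32 for mitotic entry, 0.48 for heme, 0.84 for pro-inflammatory and -1.37 for interferon genes. Between the days the pro-inflammatory list reversed to -0.069 in control, and the interferon list went from -0.03 to 0.93 in KO. With raised lists, KO over control at dpi2 gave 0.046 for licensing and 0.019 for DNA synthesis, both reversed, -0.23 for mitotic entry, 0.76 for pro-inflammatory and -1.72 for interferon genes, and -0.58 for the last at dpi4. Between the days it gave -0.51 and -0.84 for DNA synthesis in control and KO, -0.16 (reversed) and -0.77 for pro-inflammatory genes, and 0.27 for heme and 0.97 for interferon genes in KO. With mitochondrial shares under 5%, the pro-inflammatory median at dpi2 was 0.75 and the heme median at dpi4 0.42. The pro-inflammatory median was 0.80 at dpi2 without the cells holding other RNA, and 0.44 in control between the days after thinning.

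For cycling over other macrophages, the heme median of KO at dpi2 reversed to -0.081 and the MHC class II median of KO at dpi4 to 0.0095 with raised lists, and with TMM factors the repair and heme medians of control at dpi4 reversed to -0.061 and -0.045. Of single genes, *Marco* between the days in KO reversed to 1.40 with at least 2 UMIs, 1.48 with mitochondrial shares under 5% and 1.29 with raised lists. *Il10* for KO over control at dpi4 reversed to 0.93 with at least 2 UMIs and 0.78 with raised lists, and *Cxcl14* to -0.42 without the cells holding other RNA. *Zfp667* reversed to -1.38 in control and 0.22 in KO between the days after thinning.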
